A study of Mus musculus with 10 samples.

Results

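A set of 10 genes of blood vessels is described here, 8 of them markers of endothelium (Pecam1, Cdh5, Kdr, Tek, Flt1, Eng, Vwf and Plvap) and the other two the secreted factors Vegfa and Angpt2. They were chosen by symbol: gene probes whose accession mapped through RefSeq to these symbols. All 10 genes were found, on 14 of the 34312 gene probes, among 14478 genes tested. The tumors were 7 colon tubular adenomas, labelled as carrying dominant active mutant Ctnnb1, the gene of beta-catenin, and the comparison samples were 3 pieces of adjacent normal colon epithelium labelled wild type for Ctnnb1. All came from 3 CYP1A-humanized mice on the AIN93M diet, in which human CYP1A genes replace the mouse ones. Each mouse had been gavaged with 2 doses of PhIP, a heterocyclic amine of cooked meat, at 100 mg/kg and 6 weeks of age, had then drunk 1.5% dextran sulfate sodium (DSS), an agent that injures the colon lining, for 1 week, and was kept for 8 more weeks; the labels give 16 weeks as the age. Mouse 41 (male) and mouse 42 (female) each gave 3 tumors and 1 normal sample, and mouse 43 (male) gave 1 tumor and 1 normal sample, so the normal tissue had seen the same agents, no untreated animal was included, and the 7 tumors are not 7 independent animals.

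Endothelial cells line blood and lymph vessels. Vascular endothelial growth factor A, the product of Vegfa, is secreted by epithelial and stromal cells and drives endothelial division and sprouting through the receptor encoded by Kdr, while the related receptor encoded by Flt1 binds it tightly and signals weakly. Angiopoietin 2, the product of Angpt2, is made largely by activated endothelium and modulates the receptor encoded by Tek, which angiopoietin 1 stimulates in resting vessels. In bulk tissue, fewer cells of a type and less RNA per cell cannot be told apart, and every level below is one of whole dissected tissue.

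The promoters of a gene that was higher in tumors (Eng) and of the gene that was lower (Vegfa) are shown for comparison. They are the 250 bases before the gene start in RefSeq (GRCm38.p6), at chr2:32646345-32646594 on the plus strand for Eng and chr17:46032378-46032627 on the minus strand for Vegfa, given 5′ to 3′. Of the members, 5 had an entry in the table, and the windows shown are those that lay wholly outside the annotated gene. Capitals mark matches, on either strand, to AGGAAG or its variant with a first C (core letters of sites for ETS factors, a family that includes regulators of endothelial genes), to ACGTG (the core of hypoxia response elements) and to GGGCGG (the GC box); none of the printed matches overlap.
Eng: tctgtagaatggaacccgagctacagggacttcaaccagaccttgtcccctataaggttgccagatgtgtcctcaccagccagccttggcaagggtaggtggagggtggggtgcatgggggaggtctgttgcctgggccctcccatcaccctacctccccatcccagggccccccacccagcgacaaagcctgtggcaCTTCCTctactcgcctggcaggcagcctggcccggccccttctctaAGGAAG
Vegfa: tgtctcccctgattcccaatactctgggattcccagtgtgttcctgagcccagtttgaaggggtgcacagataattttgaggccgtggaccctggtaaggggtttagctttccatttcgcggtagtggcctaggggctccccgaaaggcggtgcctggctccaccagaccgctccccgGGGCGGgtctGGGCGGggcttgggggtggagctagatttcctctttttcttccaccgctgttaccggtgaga
The Eng window held 2 matches to AGGAAG and 0 to the other motifs. AGGAAG occurred in 29.5% of 32851 windows of 250 bases over all genes, whether or not a window lay outside its gene. The Vegfa window held 2 matches to GGGCGG (32.7% of windows) and 0 to the other 3 motifs; the ETS variant CGGAAG occurred in 13.6% and ACGTG in 16.6% of windows. The windows of Flt1, Kdr and Tek lay at least partly inside their annotated genes and are not shown. The Flt1 window held 2 matches to AGGAAG and 3 to GGGCGG. The Kdr window held 2 to GGGCGG and 0 to the other motifs, and the Tek window held 0 to every motif. A second Vegfa window in the table, which lies inside the annotated gene and is not shown, held 1 match to ACGTG and 1 to GGGCGG. The letters were not tied to any measurement of binding.

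RNA was amplified, labelled with biotin and Alexa-647, and read on 10 one-colour oligonucleotide arrays. Between 59.1% and 66.7% of gene probes were above background on a tumor array, and between 57.7% and 60.6% on a normal array. All 10 members were above background on all 10 arrays, normal epithelium included. Genes of squamous epithelium set 1 tumor and 1 normal (the squamous-rich arrays) apart: the mean level of 9 such genes, relative to each gene's mean over all arrays, reached 2.41 on the log2 scale in the mouse 43 tumor and 2.50 in the mouse 42 normal; elsewhere (8 arrays) it ran from -0.86 to -0.28. The 4 tumor arrays scanned in a later session were those labelled as redipped or rescanned, and no normal array was among them. The number of arrays limits the precision.

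All 8 endothelial markers and Angpt2 were higher in tumors, and Vegfa was lower. With limma, with the mouse as a block and Benjamini-Hochberg adjustment over all genes, 9 of 10 members were called higher (adjusted p under 0.05), where 25.9% of all genes were, and 1 was called lower, where 23.7% were. The median log2 difference of the endothelial markers was 0.73, beside 0.01 for all genes tested. In this fit the endothelial rises ran from 1.29-fold for Kdr to 2.13-fold for Vwf (0.37 and 1.09 in log2). Both ends of that range depended on the background step. With no further background correction the endothelial log2 differences ran from 0.67 for Pecam1 to 1.39 for Eng, with Kdr at 0.88 and Vwf at 1.32. In the main fit Angpt2 rose 2.87-fold, the most of the members. With the spot median Pecam1 (1.14 in log2) stood above Angpt2 (1.04), but on another probe, the brighter one there. The Pecam1 probe of the main fit gave 0.50 with the spot median. In mouse 41, with the spot mean, Cdh5, Eng, Vwf and Plvap (0.87 to 1.15) stood above Angpt2 (0.72). Tumors and normals did not overlap for 6 of the 10 members, and for 41.5% of all genes. Without the 2 squamous-rich arrays, and with no block for the mouse, the counts were again 9 higher and 1 lower (20.9% and 19.6% of all genes).

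Both member genes for junction proteins of endothelium were higher in tumors. Pecam1 encodes CD31, an adhesion molecule of endothelial contacts that platelets and leukocytes also carry. Its tumors lay at 8.74, 9.19 and 9.39 (lowest, median and highest log2 normalized intensity), and the normals of mice 41, 42 and 43 at 8.84, 8.33 and 8.13. The tumor of mouse 43 and tumor 3 of mouse 42 lay below the highest normal, and each of the 7 tumors exceeded the normal of its own mouse. Pecam1 rose 1.49-fold (0.58 ± 0.10 in log2, SE, n = 7 against n = 3; adjusted p = 0.0015 in limma). Cdh5 encodes VE-cadherin, the cadherin of endothelial junctions. It lay at 7.83, 8.14 and 8.60 in tumors (lowest, median and highest), against 7.45, 7.21 and 7.06 in the normals of mice 41, 42 and 43. The groups of Cdh5 were separated by 0.38, and it rose 1.77-fold (0.82 ± 0.12, limma adjusted p = 0.00054).

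**Figure D1:**
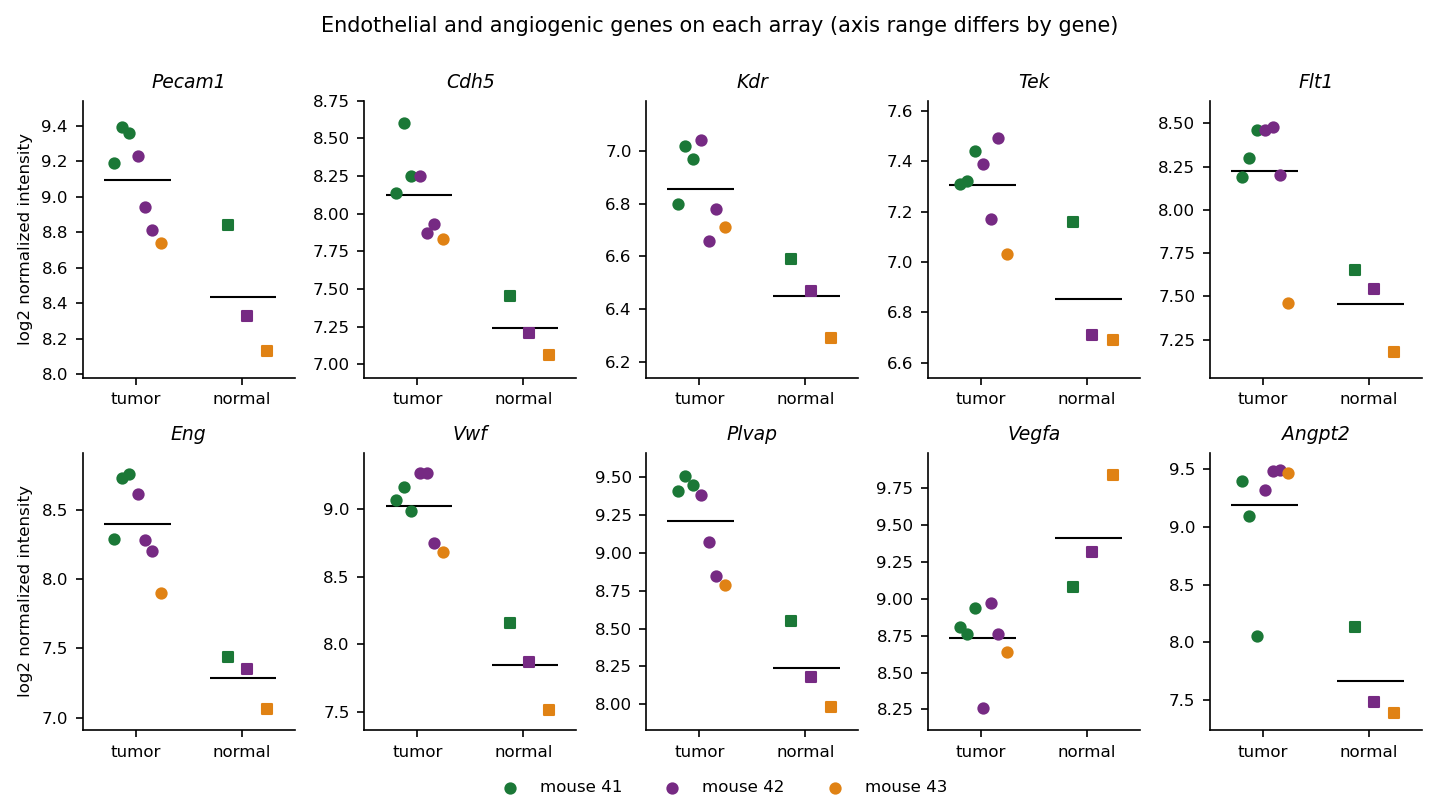
Log2 normalized intensity (spot mean, normexp and quantile) of each of the 10 genes on each array, with tumors left as circles, normals right as squares, colours for the mouse and a line at the group mean; each panel has its own axis range. Every endothelial marker is higher on the tumor side, Vegfa is lower, and 1 tumor of mouse 41 lies at 8.05 for Angpt2, among the normals.

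All 3 receptor genes were higher in tumors, by 1.29-fold to 1.55-fold in the main fit. With no further background correction their log2 differences were 0.88 for Kdr, 0.85 for Flt1 and 0.72 for Tek. Kdr, which encodes VEGF receptor 2, was the dimmest member, with spots 45 to 82 units over local background in tumors and 19 to 36 in normals, where the limit for above background was 11 to 24.2. In log2 normalized intensity Kdr lay at 6.66, 6.80 and 7.04 in tumors (lowest, median and highest) and at 6.59, 6.47 and 6.29 in the normals of mice 41, 42 and 43, with a gap of 0.07 between the groups. It rose 1.29-fold (log2 difference 0.37 ± 0.10, limma adjusted p = 0.012), a call lost without mouse 41 or mouse 42 (0.38 each, adjusted p = 0.067 and 0.051), with only the mouse 42 normal left out (0.38, adjusted p = 0.054) and when the session of scanning was added as a block (0.30, adjusted p = 0.084). Flt1, which encodes VEGF receptor 1, lay at 7.46, 8.30 and 8.48 in tumors, against 7.65, 7.54 and 7.18 in the same order of normals. The tumor of mouse 43, at 7.46, stood below 2 of the 3 normals, and the other 6 tumors, from 8.19 upward, stood above all of them. Flt1 rose 1.55-fold (0.63 ± 0.12, limma adjusted p = 0.0018). Tek encodes TIE2, the angiopoietin receptor. It lay at 7.03, 7.32 and 7.49 in tumors and at 7.16, 6.71 and 6.69 in normals, and the normal of mouse 41 reached into the range of the tumors. Tek rose 1.32-fold (0.40 ± 0.11, limma adjusted p = 0.012); it did not pass with tumors averaged in each mouse (0.39, adjusted p = 0.061) or without the normal of mouse 42 (0.25, adjusted p = 0.12).

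With the spot mean, the co-receptor gene Eng, the clotting protein gene Vwf and the fenestra gene Plvap were each higher in every tumor than in every normal. Eng encodes endoglin, a co-receptor for BMP and TGF-beta ligands on endothelium, and lay at 7.90, 8.29 and 8.76 in tumors, against 7.44, 7.35 and 7.06 in normals, a gap of 0.46. It rose 2.03-fold (1.02 ± 0.13, limma adjusted p = 3e-04). Vwf encodes von Willebrand factor, which endothelium stores and megakaryocytes also make. It lay at 8.68, 9.06 and 9.26 in tumors, against 8.16, 7.87 and 7.52 in normals, a gap of 0.53 and the widest of the 10. It rose 2.13-fold (1.09 ± 0.13, limma adjusted p = 0.00018). Plvap encodes the protein of the diaphragms that close endothelial fenestrae and caveolae. It lay at 8.79, 9.38 and 9.51 in tumors and at 8.55, 8.18 and 7.98 in normals, and rose 1.85-fold (0.89 ± 0.11, limma adjusted p = 0.00022). The separation depended on the spot summary. With the spot median the groups overlapped for Plvap, with the lowest tumor at 7.05 and the highest normal at 7.25. They were barely apart for Vwf (6.97 and 6.96). In the authors' deposited table Plvap overlapped too, with its lowest tumor at 72.1 and its highest normal at 88.0 in linear intensity.

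The ligand genes Vegfa and Angpt2 went opposite ways. Vegfa lay at 8.26, 8.76 and 8.97 in tumors, against 9.08, 9.32 and 9.84 in the normals of mice 41, 42 and 43, and all 7 tumors were below all 3 normals. It was 1.56-fold lower (log2 difference -0.64 ± 0.18, 95% interval -1.05 to -0.22, limma adjusted p = 0.018). The size differed by animal: -0.24 as the mean of 3 tumors in mouse 41, -0.66 in mouse 42 and -1.20 for the 1 tumor of mouse 43. The Vegfa call was lost without mouse 43 (-0.45, adjusted p = 0.077), without mouse 42 or its normal alone (-0.62, adjusted p = 0.083), with median scaling (-0.48, adjusted p = 0.07), when the session of scanning was a block (-0.48, adjusted p = 0.13) and within the earlier session (-0.36, adjusted p = 0.11), while its sign was negative in all 27 alternatives. Angpt2 lay at 8.05, 9.40 and 9.49 in tumors, against 8.13, 7.48 and 7.39 in normals. The other 6 tumors stood at 9.09 or above, and tumor 3 of mouse 41, at 8.05, stood 0.08 below the normal of its own mouse. Angpt2 rose 2.87-fold (1.52 ± 0.32, limma adjusted p = 0.0036), and 365 of the 14478 genes had a difference at least as high. It did not pass without mouse 42 (1.26, adjusted p = 0.095) or within the earlier session (1.21, adjusted p = 0.16).

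Set against the normal of the same mouse, the 8 endothelial markers were higher in each of the 7 tumors with the spot mean. Tek fell short of this in other values. With the spot median it was above its own normal in 5 tumors and below in 1. In the authors' deposited table it was above in 5 of 7. In the main processing Kdr and Tek differed least, from 0.19 to 0.57 and from 0.15 to 0.78 on the log2 scale. That order depended on the background step. With no further background correction the fitted differences were 0.88 for Kdr, 0.72 for Tek and 0.67 for Pecam1, then the smallest of the endothelial markers. Vwf ran from 0.82 to 1.39 and Eng from 0.84 to 1.32. Plvap was among the evenest, with an SD of 0.16 over the 7 differences, beside 0.79 for Angpt2 and 0.41 for Vegfa. In mouse 42 the 3 tumors had 1.85, 2.01 and 2.02 for Angpt2, and the tumor of mouse 43 had 2.08, whereas the tumors of mouse 41 had 1.27, 0.96 and -0.08. For Vegfa, tumor 1 of mouse 42 (-1.07) and the tumor of mouse 43 (-1.20) stood lowest. The 4 tumors scanned in the later session averaged 1.72 over their own normals for Angpt2 and the 3 scanned earlier 1.07, and the same means were -0.73 and -0.32 for Vegfa and 1.24 and 0.87 for Vwf; the part of the session was not tested beyond the fits given with it. The difference between the effects of mouse 42 and mouse 41 was tested in limma with a mean for each mouse and tissue. None of the 10 members passed (0 called, and 0 at an unadjusted p under 0.05), where 0.401% of all genes were called and 7.14% had an unadjusted p under 0.05. Angpt2 came to 1.24 ± 0.62 (mouse 42 minus mouse 41, limma adjusted p = 0.73) and Tek to 0.45 ± 0.21 (adjusted p = 0.73). Each of these mice has 1 normal, they differ in sex, and mouse and sex cannot be told apart.

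**Figure D2:**
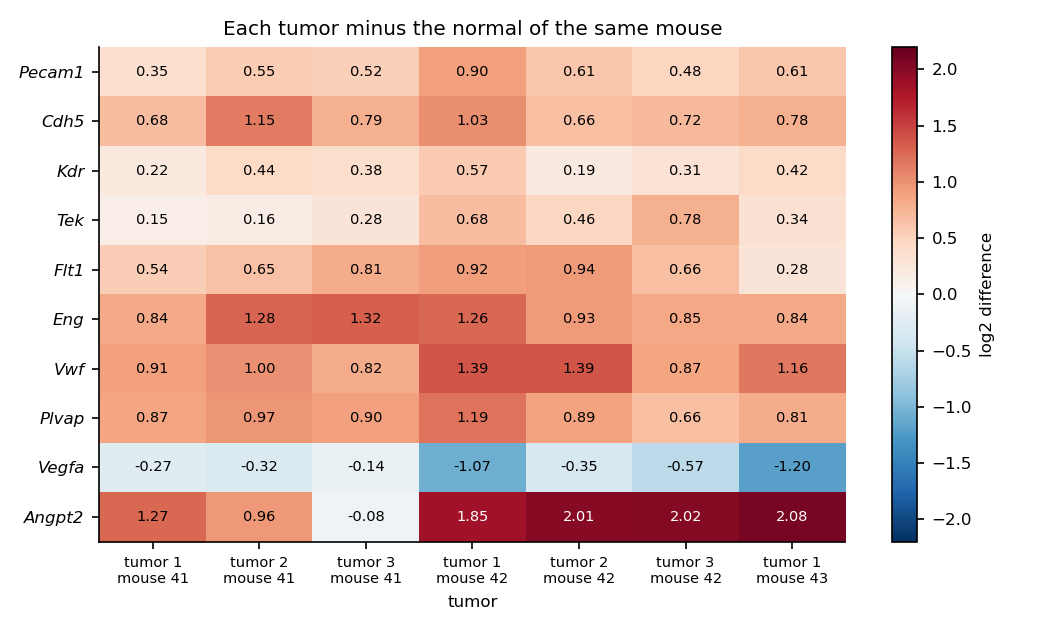
Log2 intensity of each tumor minus that of the normal of the same mouse, genes in rows and the 7 tumors in columns, with the value in each cell. The endothelial rows are positive throughout (0.15 to 1.39), the Vegfa row is negative throughout (-1.20 to -0.14), and the Angpt2 row holds 1 value below 0.

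For 4 genes the array had a second probe, and the pairs of Pecam1, Eng and Angpt2 pointed the same way. The other Pecam1 probe rose 1.84-fold (log2 difference 0.88 ± 0.10, limma adjusted p = 0.00013 over 20054 probes). The other Eng probe rose 1.80-fold (0.85 ± 0.10, adjusted p = 0.00016), and the other Angpt2 probe 2.48-fold (1.31 ± 0.23, adjusted p = 0.0013). On that Angpt2 probe tumor 3 of mouse 41 was again the lowest tumor, at 7.07, and the normals of mice 41, 42 and 43 lay at 6.85, 6.59 and 6.43, so that it was above its own normal there. The other Flt1 probe was not well above background in any normal and was above background in 5 of 7 tumors. With the normals raised to the lowest signals above background, that probe was 1.11-fold higher in tumors (mean 6.39 in tumors and 6.14 in normals as measured). Some tumors were not above background either, so this is not a strict lower bound. That probe passed the background filter only through tumors, so its direction is no separate support for the first Flt1 probe. Of all probes tested, 24.8% were called higher.

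How a spot was summarised changed the sizes and most of the calls. The values above use the mean of a spot's pixels. The ratio of the spot mean to the spot median, both over local background, was 5.80 in tumors and 3.90 in normals for Vwf (medians over arrays), and 4.88 and 3.60 for Plvap, beside 1.80 and 1.89 for all genes above background on every array. With the spot median 2 members passed as higher (Pecam1 and Flt1), where 9.35% of all genes did, and Vegfa passed as lower (-0.69 ± 0.19, limma adjusted p = 0.041; 9.57% of all genes). The differences were then 0.33 for Cdh5, 0.27 for Kdr, 0.18 for Tek, 0.32 for Flt1, 0.61 for Eng, 0.37 for Vwf, 0.51 for Plvap and 1.04 for Angpt2. Pecam1, at 1.14, was then read on its other probe, which was the brighter one there; the probe used above gave 0.50 (adjusted p = 0.17 over probes). The second probes of Eng (0.56, adjusted p = 0.049) and Angpt2 (0.75, adjusted p = 0.022) passed with the spot median. All 8 endothelial differences stayed positive. The authors' deposited table scales the spot median over background and held 13 of the 14 probes. Each gene was read there on its brightest probe in that table, which need not be the probe used above. That table gave 3 higher, Pecam1 (1.50), Eng (1.01) and Angpt2 (1.56), where 12.1% of its genes were called higher. In the authors' deposited table Vegfa was at -0.89 (adjusted p = 0.055), below its own normal in 6 of 7 tumors. Within the earlier scan session 6 members passed as higher, all of them endothelial (11.3% of all genes); that fit set 3 tumors against the normals of 2 mice. The count was 8 with tumors averaged in each mouse (18.9% of all genes), with a further block for the session (18.6%) and without mouse 41 (21.4%), 7 without the normal of mouse 42 (17.8%) and 6 without mouse 42 (14.2%). It was 9 with no block for the mouse (25.3%) and with median scaling (29.1%).

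**Figure D3:**
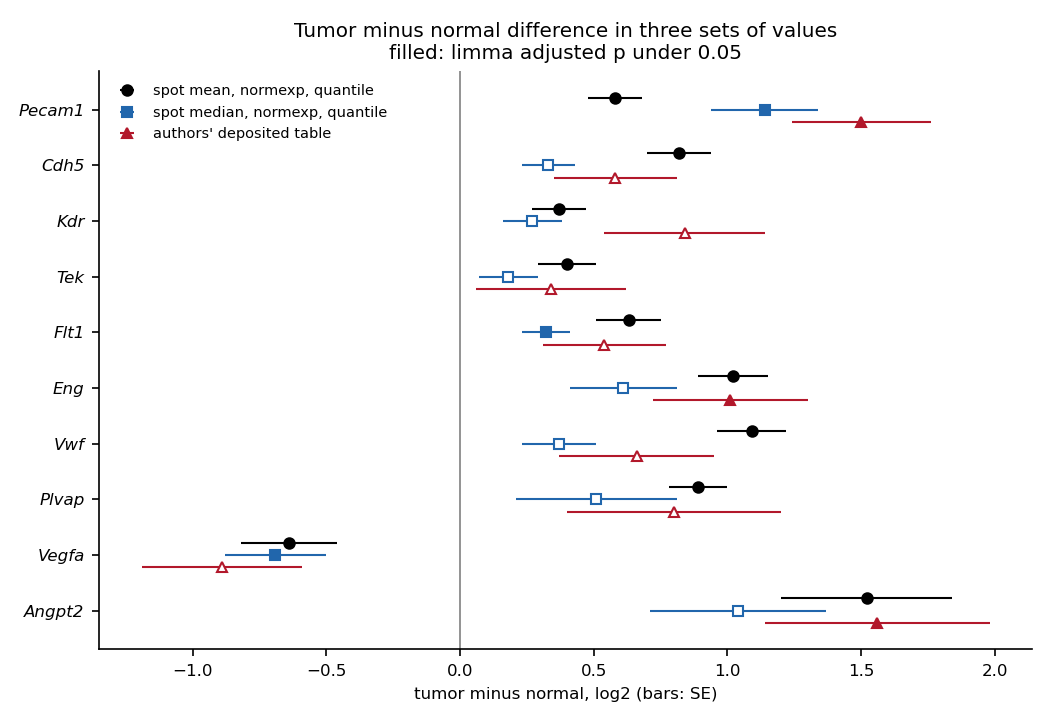
Tumor minus normal log2 differences with SE for the 10 genes from the spot mean, from the spot median and from the authors' deposited table; filled symbols passed a limma adjusted p under 0.05. All endothelial markers and Angpt2 lie right of 0 and Vegfa left of 0 in all 3, with 10, 3 and 3 filled symbols. Each set uses a gene's brightest probe, and the Pecam1 probe differs between the spot mean and the spot median. With the spot median the Pecam1 probe of the spot mean gave 0.50 (limma adjusted p = 0.17 over probes).

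Other genes of endothelium mostly followed the same direction. Of 22 tested, 14 rose, 1 fell and 7 did not pass, with a median log2 difference of 0.77. Of all genes 25.9% rose and 23.7% fell, or 9.35% and 9.57% with the spot median. The counts of this and the later lists stand beside these shares. The transcription factor Sox18 rose 3.02-fold, the sphingosine receptor S1pr1 1.92-fold, Cd34 1.82-fold and the nitric oxide synthase Nos3 1.61-fold. Clec14a, which was above background in 3 of 7 tumors and 2 of 3 normals and is named because it was the 1 that fell, was 1.19-fold lower (-0.25). With the spot median 8 of the 22 rose and 0 fell. Of 6 tested genes of activated endothelium, 5 rose: the adhesion receptor Icam1 2.84-fold, the clotting regulator Thbd 2.74-fold, Vcam1 2.31-fold, the gut addressin Madcam1 2.01-fold, and the selectin gene Selp 2.90-fold. With the spot median 3 of these rose. The adhesion genes Icam1 and Vcam1 are also expressed by other cells of inflamed tissue.

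The VEGF and angiopoietin systems were uneven, and their counts stand beside 25.9% of all genes called higher and 23.7% called lower. Among the 5 tested ligands and receptors beside the members, Pgf, which encodes placental growth factor, a ligand of FLT1, rose 2.77-fold (1.47 ± 0.18, limma adjusted p = 0.00023). The co-receptor Nrp1 rose 1.58-fold and Nrp2 was 1.27-fold lower (-0.34), while Vegfc (0.12, adjusted p = 0.27) and the lymphatic receptor Flt4 (-0.09) did not pass. Nrp2 was at -0.34 here and did not pass with median scaling, the spot median or a block for the scan session, where 0 of the 5 were called lower. With the spot median and with that block 1 of the 5 was called higher, in place of 2, where 9.35% and 18.6% of all genes were. Of 8 genes of the angiopoietin and apelin system 7 were called higher, with Angptl4 at 2.45-fold, Angptl2 at 2.34-fold and the endothelial phosphatase Ptprb at 1.77-fold. Angpt1, the activating ligand of TIE2, was not well above background in any normal. With the normals raised to the lowest signals above background, Angpt1 was 1.13-fold higher in tumors. Angpt4 and Apln, also not well above background in any normal, were 2.19-fold and 1.42-fold higher on the same reckoning. Angpt1 and Apln were each above background in 6 tumors and not in every tumor, so their folds are not strict lower bounds. Angpt1, Angpt4 and Apln are counted among the 7. They passed the background filter only through tumors, so their calls are no separate support. Tie1, the sister receptor of TIE2, did not pass (0.23, adjusted p = 0.14).

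Genes for inhibitors of vessel growth had some of the largest differences around the members. Of 7 tested, 5 rose and 1 fell, where 25.9% of all genes rose and 23.7% fell. Col18a1, whose product is the source of endostatin, rose 6.03-fold (2.59 ± 0.22, limma adjusted p = 3.9e-05), and the thrombospondins Thbs2 and Thbs1 rose 5.43-fold and 2.80-fold. Serpinf1, which encodes pigment epithelium-derived factor, rose 2.00-fold. Vash1 was 1.17-fold lower (-0.23), a call lost with the spot median, in the authors' deposited table, within the earlier session, with a block for the session and without the squamous-rich arrays. In all of these but the authors' deposited table, 4 of the 7 rose. Of 19 tested genes of the hypoxia response, 5 rose, 4 fell and 10 did not pass, with a median of -0.15; 25.9% of all genes rose and 23.7% fell, so these shares are near the background. The matrix enzyme Lox rose 3.34-fold, the glycolysis regulator Pfkfb3 2.89-fold and the stress gene Ddit4 2.51-fold, whereas the kinase Pdk1 was 1.79-fold lower. The other 3 that fell, named after their values were seen, were Car9 (-1.36), Ndrg1 (-1.14) and the hypoxia-inducible factor Epas1 (-0.65); Hif1a did not pass (0.20). Genes of the Notch pathway and of arteries and veins were split, with 5 of 12 higher and 2 lower, beside the same shares of all genes. Among them were Hey1 at 2.41-fold, the venous receptor Ackr1 at 2.04-fold, Notch1 at 1.97-fold and Efnb2 1.74-fold lower. Gja5, counted among the 5, was above background in 0 normals and passed the filter only through tumors. With the spot median 2 of the 12 were higher (9.35% of all genes) and 0 lower (9.57%).

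**Figure D4:**
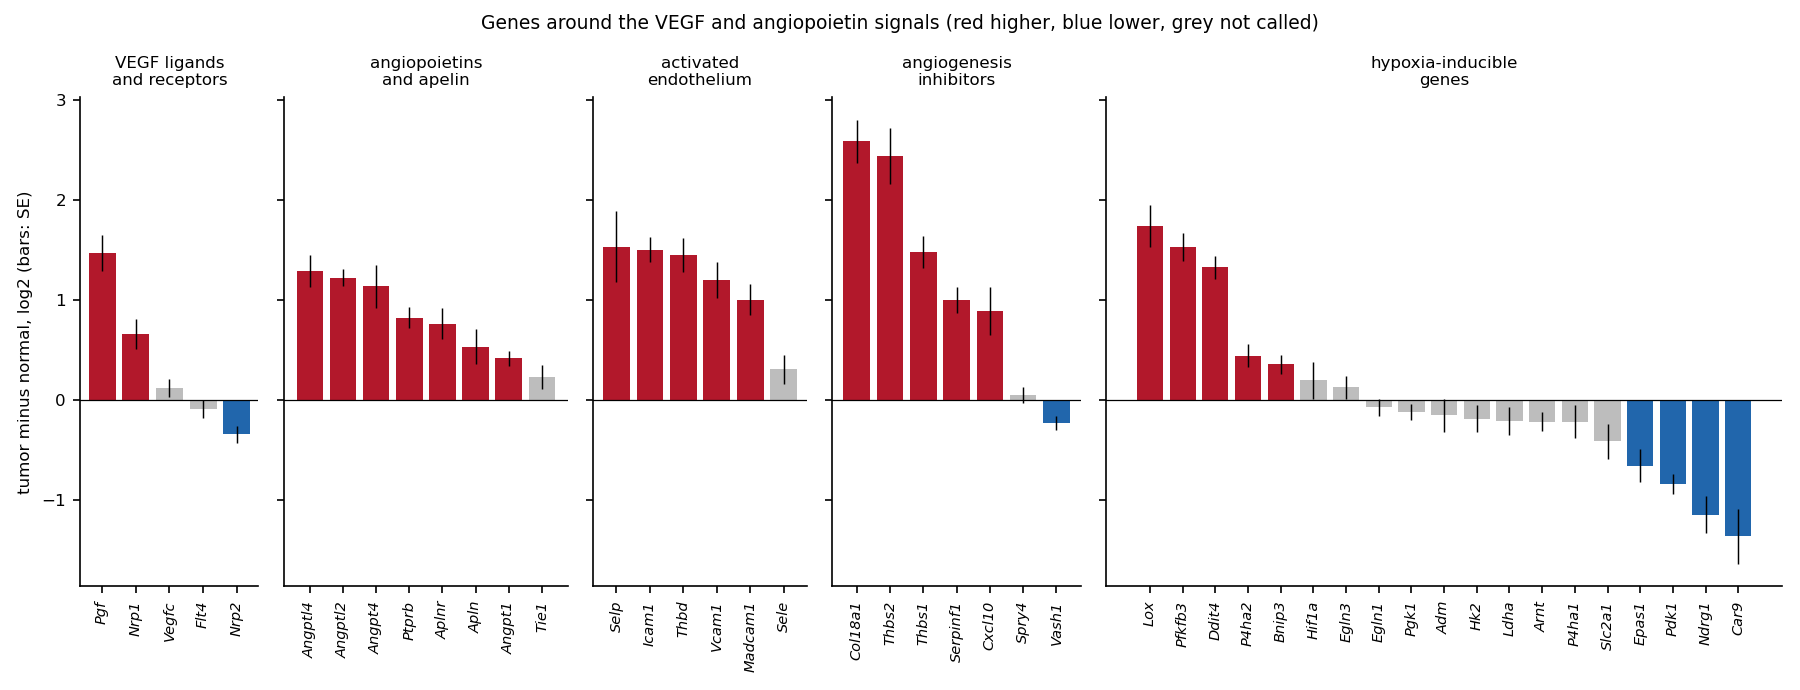
Fitted tumor minus normal log2 differences with SE for genes around the members in 5 lists; red bars passed as higher, blue as lower and grey bars did not pass. Pgf, Col18a1 and Thbs2 stand high while hypoxia-inducible genes run from 1.74 for Lox to -1.36 for Car9; Angpt1, Angpt4, Apln and Sele were not above background in any normal, so their bars are no measured fold.

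Pericyte, fibroblast and leukocyte genes mostly rose along with the endothelial genes. Smooth muscle and epithelial genes were lower more often than higher, and most blood and lymphatic genes did not pass. The part of other cell types in the differences was not tested. Of all genes 25.9% were higher and 23.7% lower, or 9.35% and 9.57% with the spot median. Of 7 tested pericyte genes 5 rose, with Rgs5 at 2.32-fold, Pdgfrb at 1.95-fold, Notch3 at 1.51-fold and Pdgfb, an endothelial product that recruits pericytes, at 1.36-fold; with the spot median 2 rose. Fibroblast markers rose in 6 of 7 cases and 1 fell, and leukocyte markers rose in 6 of 8 and 1 fell; with the spot median 3 and 5 rose. The matrix gene Dcn rose 3.67-fold and the receptor gene Pdgfra 3.31-fold, while Fap was 1.66-fold lower. The neutrophil gene S100a8 rose 5.64-fold and the macrophage complement gene C1qa 4.26-fold, while the B cell gene Cd79a was 1.85-fold lower. The fibroblast list level was -0.53 to 0.84 in tumors and -1.06 to -0.83 in normals, and the leukocyte level 0.03 to 0.55 in tumors and -0.996 to -0.561 in normals. The 8 endothelial members had -0.14 to 0.47 in tumors and -0.80 to -0.31 in normals, with the tumor of mouse 43 lowest among tumors for endothelial and fibroblast genes alike. Of 6 smooth muscle genes 4 were lower and 0 higher in tumors, among them Des 1.97-fold and Tagln 1.70-fold lower; with the spot median, in the authors' deposited table and with a block for the scan session 1 was lower in each, and 2 were lower without the 2 squamous-rich arrays. Of 8 epithelial genes 4 were lower and 1 higher, with 0 higher and 1 lower with the spot median, and their level was -0.34 to 0.32 in tumors and 0.24 to 0.31 in normals. Krt20, a keratin of differentiated epithelium, was 2.81-fold lower. Among 9 genes of platelets and red blood cells, 1, the platelet chemokine Pf4, was higher (3.45-fold). It was not called with the spot median (0 of 9), and the platelet integrin gene Itga2b did not pass (0.07, adjusted p = 0.6). Of 6 lymphatic genes Pdpn (3.12-fold) and Prox1 (9.10-fold), both also expressed outside vessels, rose, while Lyve1 (-0.07, adjusted p = 0.84) and Reln (-0.22) did not pass.

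**Figure D5:**
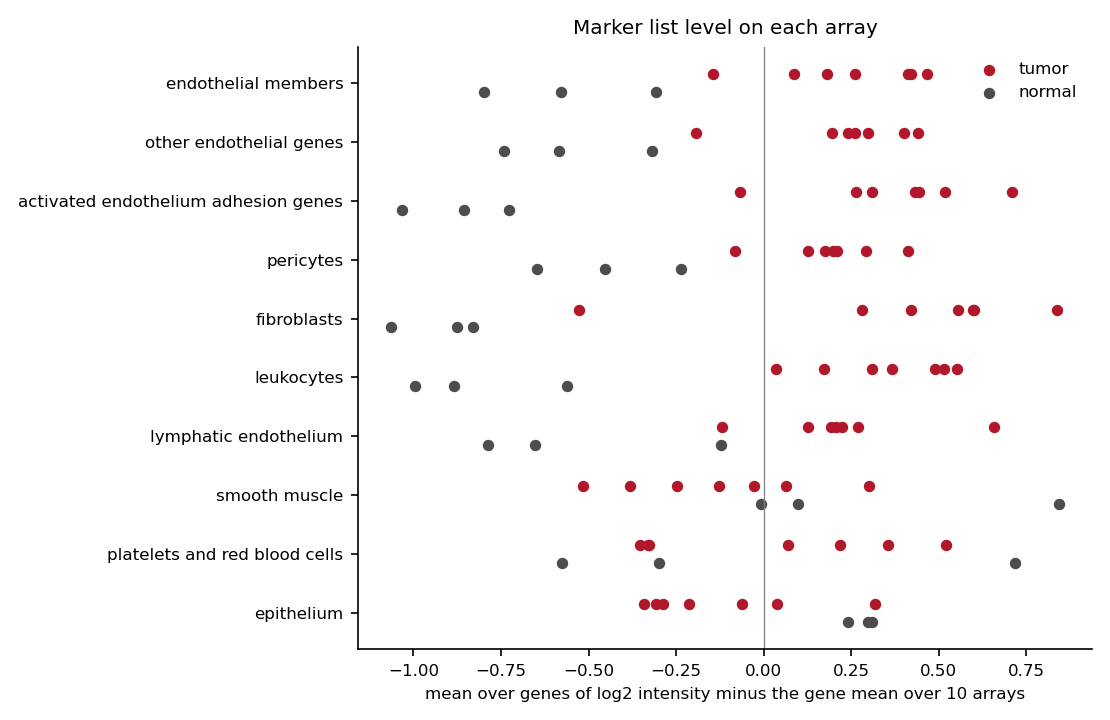
Mean over the tested genes of each marker list of log2 intensity minus the gene's mean over the 10 arrays, 1 point for an array, tumors above normals in each row. Tumors and normals are apart for both endothelial lists, adhesion, pericyte, fibroblast and leukocyte genes, meet at -0.12 for lymphatic genes, and overlap for smooth muscle, blood and epithelial genes.

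With each group's mean removed, the endothelial members varied together over the 10 arrays, with pairwise Pearson correlations from 0.43 to 0.97 and a median of 0.71 over 28 pairs; the arrays share mice and scan sessions, and no p is given. Their mean had r = -0.40 with Vegfa and -0.21 with Angpt2. Among 9945 other genes above background everywhere, the 6 most like the endothelial mean were Zeb1 (r = 0.97), Olfml1, Tmprss2, Pmepa1, Rtn2 and Tm4sf5 (r = 0.94), of which Zeb1 and Pmepa1 were higher in tumors and Tmprss2 and Tm4sf5 lower. Most like Vegfa were Ap1g1 (r = 0.96), Mfsd11, Slk, Srek1, Tsc1 and Rnf128 (r = 0.86), of which Tsc1 and Rnf128 were lower in tumors. Most like Angpt2 were Nfe2l3 (r = 0.98), Ro60, Tnfrsf11b, Zfp93, Tmem64 and Hdac2 (r = 0.96); all but Zfp93 were higher in tumors. These are descriptions over few arrays chosen from many genes.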

How the data were processed

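Intensity was measured on 7 tumor and 3 normal arrays (read at 635 nm and gain 650 with GenePix Pro 4.1.1.4, per the file headers). The deposited scanner files hold linear intensity per spot with no normalization, 38880 spots an array. The authors' deposited table holds intensity of 19327 probes, matching spot median minus local background times a factor per array; no source used here states the choice of probes. Of 34312 gene probes, 22987 matched 1 symbol through RefSeq accessions (GRCm38.p6 table, used for names).

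Background was corrected with normexp (offset 50, all spots, spot mean and local background median), gene probes were quantile normalized and log2 transformed, and 43 probes marked bad were left out. A probe was above background if found by the scanner software and brighter than the 99th percentile of 432 null spots; 14478 genes reached this on at least 3 arrays, each with its brightest probe. Limma 3.58.1 in R 4.3.3 (lmFit, eBayes, Benjamini-Hochberg) compared tumors with normals, with a fixed term for the animal each sample is labelled with; the pairing is by animal, and same-mouse deviations correlated at 0.11, -0.07 and -0.08 in mice 41, 42 and 43. Samples are separate tissue pieces of 3 animals, so p-values measure the spread between pieces more than between animals. The fits were tested on simulated data.

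The members, the gene lists and the rule for naming genes (up to 4 of each list with the lowest p, and 6 genes most like each pattern) were chosen with earlier results of these data known. Genes outside that rule (Angpt4, Apln, Car9, Clec14a, Epas1, Gja5, Hif1a, Lyve1, Ndrg1, Sele, Selp, Tie1 and Vash1) were named after their values were seen. Alternatives covered spot summary, background, normalization, filter, probe choice, block, scan session, the deposited table, and left-out arrays or mice.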

Additional observations from a re-analysis of the deposited data

Results flagged for a closer look

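For Flt1 the tumor of mouse 43, at 7.46 in log2 normalized intensity, lay far from the other tumors, the next of which was at 8.19; the gap was 0.72 of the range of the 7 tumors, past Dixon's critical value for that number. That array also had the high squamous genes and the lowest endothelial level among tumors, and their part in this was not tested.

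For Angpt2 tumor 3 of mouse 41, at 8.05, was far below the next tumor, at 9.09, a gap of 0.72 of the range. Chance passes the critical value used in about 1 of 20 groups of independent samples; the 7 tumors came from 3 mice, and 10 genes were examined.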

How the results depend on the processing

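The count of members called higher in tumors was 9. It was 2 with the spot median and 3 in the authors' deposited table; both rest on the median pixel of a spot, and the cause was not tested. Leaving out single arrays or mice gave 6 to 9: without the normal of mouse 42 it was 7 (Kdr and Tek did not pass) and without mouse 42 it was 6 (Kdr, Tek and Angpt2 did not pass), with fewer arrays in the fit. The other alternatives gave 6 to 9, the lowest within the earlier scan session. With no replicate block for the mouse it was 9, and with the mouse as a random block also 9, so the block changed no call in either direction; with tumors averaged in each mouse (replicate block) it was 8. No member changed sign in any of 27 alternatives. Vegfa passed in 18 of the 27. For the difference between mouse 42 and mouse 41 the count was 0 under all 6 alternatives run. The fit without both squamous-rich arrays was chosen after seeing the data. In normals Kdr and the second Flt1 probe lie near the limit of detection.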
